A study of Sus scrofa with 3 samples.

Results

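The miR-28 family was examined in the psoas major, the tenderloin muscle, of growing pigs. Its members were chosen by name: every porcine mature miRNA named miR-28, miR-151 or miR-708, from either arm of its hairpin. This rule gave 6 of the 276 porcine mature miRNAs listed in the 3 libraries, namely ssc-miR-28-5p, ssc-miR-28-3p, ssc-miR-151-5p, ssc-miR-151-3p, ssc-miR-708-5p and ssc-miR-708-3p. All 6 were listed in each library, and each at 1 hairpin only. Small RNA was sequenced from castrated male pigs of a Landrace × Large White × Duroc cross aged 63, 98 or 161 d. The paper describes a diet that changed with body weight, so that an effect of diet or weight cannot be told apart from age. Total RNA of 6 pigs was mixed for each age, so that every age had 1 library, no replicate and no measure of the spread between pigs. Levels are given as RPM, the reads of a miRNA per 1000000 reads listed in a library, whose totals were 1464699, 2418187 and 2242716 at 63, 98 and 161 d. All intervals are 95% intervals, and like the tests they cover counting error only, since each age had 1 library. PCR reads without molecular identifiers are not independent molecules, so that even this error may be understated.

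A miRNA is cut from a hairpin RNA, and the strand kept from either the 5′ arm (5p) or the 3′ arm (3p) is loaded into an Argonaute protein, where its seed, the stretch behind the first base, pairs with target mRNAs. The hairpins of miR-28 and miR-151 are known to have arisen from LINE-2 transposable elements, and miR-708 is grouped with them by sequence. In the gene table of pig assembly Sscrofa11.1, the 3 hairpin genes lie within protein-coding genes: miR-28 in LPP, a focal adhesion protein, miR-151 in PTK2, the focal adhesion kinase, and miR-708 in TENM4, a teneurin of the cell surface. miR-708 has been described as a miRNA of quiescent muscle stem cells.

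The mature sequences of 5 members, as listed in the libraries, are shown because the family is defined by them, with the seed (bases 2 to 8) in capitals:
ssc-miR-28-5p: aAGGAGCTcacagtctattgag
ssc-miR-708-5p: aAGGAGCTtacaatctagctggg
ssc-miR-151-5p: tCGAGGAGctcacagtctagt
ssc-miR-28-3p: cACTAGATtgtgagctcctgga
ssc-miR-708-3p: cAACTAGActgtgagcttctaga

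ssc-miR-28-5p and ssc-miR-708-5p carried the same seed, and no other porcine name among the 276 had it. The seeds of ssc-miR-28-3p, ssc-miR-151-5p and ssc-miR-708-3p were each found in no other porcine mature miRNA. ssc-miR-151-5p held the letters of the miR-28-5p seed at positions 4 to 10, that is, shifted by 2 bases, so that its own seed differed. The longest stretch common to ssc-miR-28-5p and ssc-miR-151-5p was 16 bases, shown here in capitals:
ssc-miR-28-5p: aAGGAGCTCACAGTCTAttgag
ssc-miR-151-5p: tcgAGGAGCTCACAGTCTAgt

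The 2 miRNAs thus differed at their ends. Between ssc-miR-28-5p and ssc-miR-708-5p the longest common stretch was 8 bases, at positions 1 to 8 of both. Arms of different hairpins were also complementary to each other: 15 bases of ssc-miR-151-5p ran antiparallel to ssc-miR-708-3p, and 11 bases to ssc-miR-28-3p. The miR-28 hairpin was listed on the plus strand at positions 135461289 to 135461374, the miR-151 hairpin on the plus strand at 7084 to 7177 and the miR-708 hairpin on the minus strand at 15120464 to 15120577. The reference sequences were given by number, and neither the build nor the chromosome was named in the sources used here.

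The muscle label was checked first. All 6 myomiRs of the check (miR-1, miR-133a-3p, miR-133b, miR-206, miR-208b and miR-499-5p) were listed at each age and together held 224843, 212537 and 237392 RPM at 63, 98 and 161 d, of which miR-133a-3p alone held 207677, 173743 and 211596 RPM. The other 5 of the 6 were each highest at 98 d. Other cells of muscle were also represented. The 2 miRNAs of red blood cells, miR-451 and miR-144, summed to 808, 1491 and 1069 RPM, the 2 of the endothelium (both arms of miR-126) to 5833, 9769 and 6759 RPM, and the 2 of smooth muscle, miR-143-3p and miR-145-5p, to 9380, 11823 and 27194 RPM. The red blood cell and endothelial sums were thus, like most of the myomiRs, highest at 98 d, and their part in the results below was not tested. In such bulk RNA, fewer cells of a type and less RNA per cell cannot be told apart.

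miR-151 was the abundant hairpin of the family and miR-708 the scarce one. The family held 0.513% (0.501 to 0.525) of the listed reads at 63 d, 0.715% (0.705 to 0.726) at 98 d and 0.652% (0.642 to 0.663) at 161 d, with Wilson intervals. At 63 d miR-151 gave 3862 RPM, miR-28 1248 RPM and miR-708 18.4 RPM, counted over both arms. At 98 d the same sums were 6403, 721 and 31.0 RPM, and at 161 d they were 5730, 776 and 18.3 RPM. The miR-151 sum was thus lowest at 63 d, the age at which the miR-28 sum was highest. All members are 21 to 23 bases long and each read is a whole molecule, so that levels were compared without a length correction.

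ssc-miR-151-5p, the leading arm of its hairpin, had 3767, 11938.5 and 9522 reads at 63, 98 and 161 d, which is 2572 RPM (2491 to 2655), 4937 RPM (4849 to 5026) and 4246 RPM (4161 to 4332). The intervals did not overlap, with the lowest level at 63 d and the highest at 98 d. Among the porcine mature miRNAs it ranked 26th, 23rd and 24th. Its share of the family's reads was 50.1%, 69.0% and 65.1% in the 3 libraries.

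ssc-miR-151-3p, the lesser arm of the same hairpin, had 1890, 3544 and 3329 reads, or 1290 RPM (1234 to 1350), 1466 RPM (1418 to 1515) and 1484 RPM (1435 to 1536). Its intervals at 98 and 161 d overlapped, and that at 63 d lay below both.

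ssc-miR-28-3p, the leading arm of the miR-28 hairpin, had 1563, 1350 and 1353 reads, or 1067 RPM (1016 to 1121), 558 RPM (529 to 589) and 603 RPM (572 to 636). The 63 d library stood above the other 2, whose intervals overlapped. Its rank fell from 47th at 63 d to 71st at 98 d and was 67th at 161 d. It made up 20.8%, 7.80% and 9.25% of the family's reads in the 3 libraries.

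ssc-miR-28-5p, which carries the seed shared with miR-708-5p, had 265, 393.5 and 387 reads, or 181 RPM (160 to 204), 163 RPM (148 to 180) and 173 RPM (156 to 191). The 3 intervals overlapped. Fractions of a read come from the pipeline, which splits reads that match more than 1 hairpin.

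The miR-708 arms were near the lower limit of these libraries. ssc-miR-708-5p had 22, 68 and 33 reads, or 15.0 RPM (9.92 to 22.7), 28.1 RPM (22.2 to 35.6) and 14.7 RPM (10.5 to 20.7). ssc-miR-708-3p had 5, 7 and 8 reads, or 3.41, 2.89 and 3.57 RPM, where 3 reads correspond to 2.05, 1.24 and 1.34 RPM at 63, 98 and 161 d. With a mean below 10 reads ssc-miR-708-3p did not enter the comparisons between ages. The reads listed as miR-28-5p or miR-708-5p, the names with the shared seed, summed to 196, 191 and 187 RPM and came mainly from miR-28-5p. Single reads were not checked for the seed.

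The order of levels was the same at each age: miR-151-5p, miR-151-3p, miR-28-3p, miR-28-5p, miR-708-5p and miR-708-3p, from the highest to the lowest. The intervals of neighbours in this order did not overlap at any of the 3 ages.

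**Figure D1:**
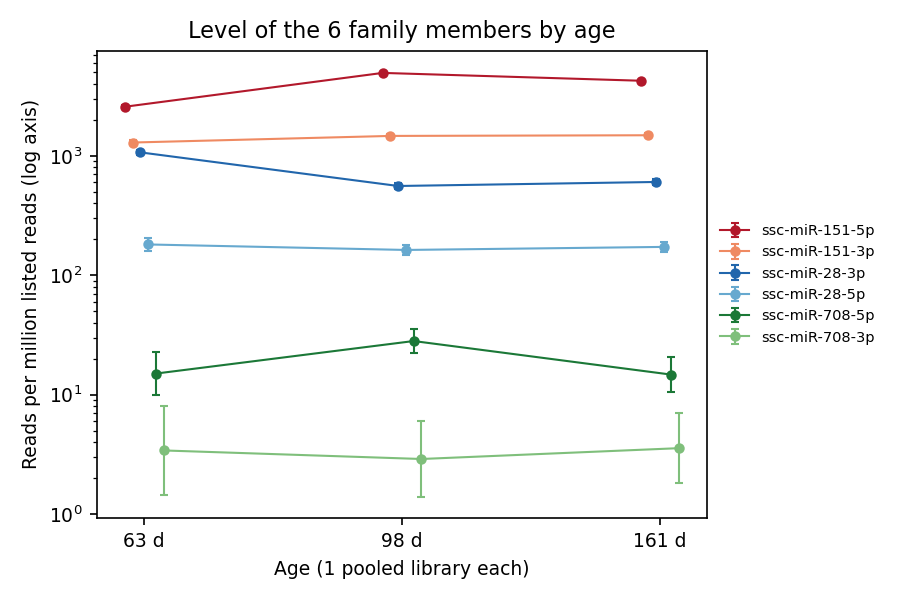
Level of the 6 members in RPM (log axis) at 63, 98 and 161 d, with 95% Wilson intervals that cover counting error only and lines that join the 1 library of each age. ssc-miR-151-5p was lowest at 63 d (2572 RPM) and ssc-miR-28-3p highest (1067 RPM), while the 3 intervals of ssc-miR-28-5p overlapped.

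The ages were then compared in pairs, by a two-sided exact binomial test of the reads of 2 libraries, conditional on their sum, and Benjamini-Hochberg adjustment over the 234 porcine mature miRNAs with a mean of at least 10 reads. Fold changes are the RPM at the later age over that at the earlier age, with Clopper-Pearson intervals. A small p here says that 2 libraries differed beyond counting error, and the difference between pigs of 1 age is not included. The medians of the 234 fold changes were 1.25 from 63 to 98 d, 0.811 from 98 to 161 d and 1.03 from 63 to 161 d, which is a shift of 0.32, -0.30 and 0.04 on the log2 scale. The members' changes are therefore also given relative to that median, a quantity that does not depend on the library scale.

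From 63 to 98 d, both arms of miR-151 and miR-708-5p were upregulated and miR-28-3p was downregulated at an adjusted p below 0.05. That is 3 of the 5 members tested in the upward direction, where 47.9% of all 234 miRNAs were called, and 1 of 5 in the downward direction, where 20.5% were called. ssc-miR-151-5p rose 1.92-fold (1.85 to 1.99, adjusted exact binomial p = 1.36e-293), or 1.54 times the median change. ssc-miR-28-3p fell to 0.523 of its level (0.486 to 0.563, adjusted exact binomial p = 4.29e-67), or 0.420 times the median change, and was the 12th lowest of the 234 fold changes. The 2 leading arms of the related hairpins thus moved in opposite directions, both relative to all reads and relative to the median miRNA.

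The lesser arms moved less in the same interval. ssc-miR-151-3p rose 1.14-fold (1.07 to 1.20, adjusted exact binomial p = 1.54e-05) on this scale, but was lower at 98 d with edgeR's TMM factors, DESeq2's size factors and the porcine reads without ssc-miR-133a-3p as the total, and stood at 0.911 times the median change. ssc-miR-28-5p had a fold change of 0.899 (0.769 to 1.06) and did not pass (adjusted exact binomial p = 0.255), but it was called lower with 4 of the 6 library scales tried and higher with 1, the clean reads as the total. ssc-miR-708-5p, the scarce member with the miR-28-5p seed, rose 1.87-fold (1.14 to 3.18, adjusted exact binomial p = 0.0139), a call that held with 3 of the 6 scales.

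From 98 to 161 d, none of the 5 tested members rose on this scale, where 9.40% of all miRNAs were called in that direction, and 2 fell, where 53.4% were called. ssc-miR-151-5p fell to 0.860 of its level (0.837 to 0.884, adjusted exact binomial p = 1.94e-27), but was higher at 161 d with the study's scaling factors, the TMM factors and the size factors of DESeq2, and its change was 1.06 times the median change. ssc-miR-708-5p fell to 0.523 (0.334 to 0.804, adjusted exact binomial p = 0.0034), again a call with 3 of the 6 scales. The fold change of ssc-miR-28-3p was 1.08 (1.00 to 1.17, adjusted exact binomial p = 0.0679), that of ssc-miR-28-5p 1.06 (0.918 to 1.22, adjusted exact binomial p = 0.502) and that of ssc-miR-151-3p 1.01 (0.966 to 1.06, adjusted exact binomial p = 0.654), and these 3 did not pass. Each of the 3 was called higher with 4 of the 6 scales, with fold changes of up to 1.34, 1.32 and 1.26 in this order, and the direction of all 3 turned with the clean reads as the total.

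From 63 to 161 d, 2 of the 5 tested members rose, where 32.9% of all miRNAs were called, and 1 fell, where 35.9% were called. ssc-miR-151-5p rose 1.65-fold (1.59 to 1.71, adjusted exact binomial p = 5.50e-158) and ssc-miR-151-3p 1.15-fold (1.09 to 1.22, adjusted exact binomial p = 2.36e-06). ssc-miR-28-3p fell to 0.565 of its level (0.525 to 0.608, adjusted exact binomial p = 3.27e-52). The fold changes of ssc-miR-28-5p, 0.954 (0.814 to 1.12), and of ssc-miR-708-5p, 0.980 (0.554 to 1.76), did not pass, with adjusted exact binomial p-values of 0.609 and 1. The 3 pairs of ages share libraries, and so the third is not independent of the other 2.

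No tested member passed a 2-fold change in any pair on this scale, where 16.7%, 13.7% and 18.4% of the 234 miRNAs did from 63 to 98 d, 98 to 161 d and 63 to 161 d. The scale bore on this limit. Of the 6 library scales tried, ssc-miR-28-3p was below 0.5 from 63 to 98 d with 4 of them, with fold changes between 0.419 and 0.770 over the 6, and it was called lower with all 6. The fold change of ssc-miR-151-5p over the same pair lay between 1.54 and 2.82, above 2 with 1 scale, and it was called higher with all 6. With edgeR's exact test and an assumed biological coefficient of variation of 0.2, none of the 5 members had an adjusted p below 0.05 in any pair, where 6.84%, 5.56% and 9.40% of the 234 miRNAs did from 63 to 98 d, 98 to 161 d and 63 to 161 d. Without adjustment 2 of 5 were below 0.05 from 63 to 98 d, 0 from 98 to 161 d and 1 from 63 to 161 d, where 23.9%, 16.2% and 22.2% of all were. The smallest adjusted p of the members in edgeR's exact test was 0.163, so that no member was called after adjustment with an assumed spread of this size. That spread was set between libraries, each a mix of 6 pigs. It was not measured, and it is not the spread between single pigs.

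**Figure D2:**
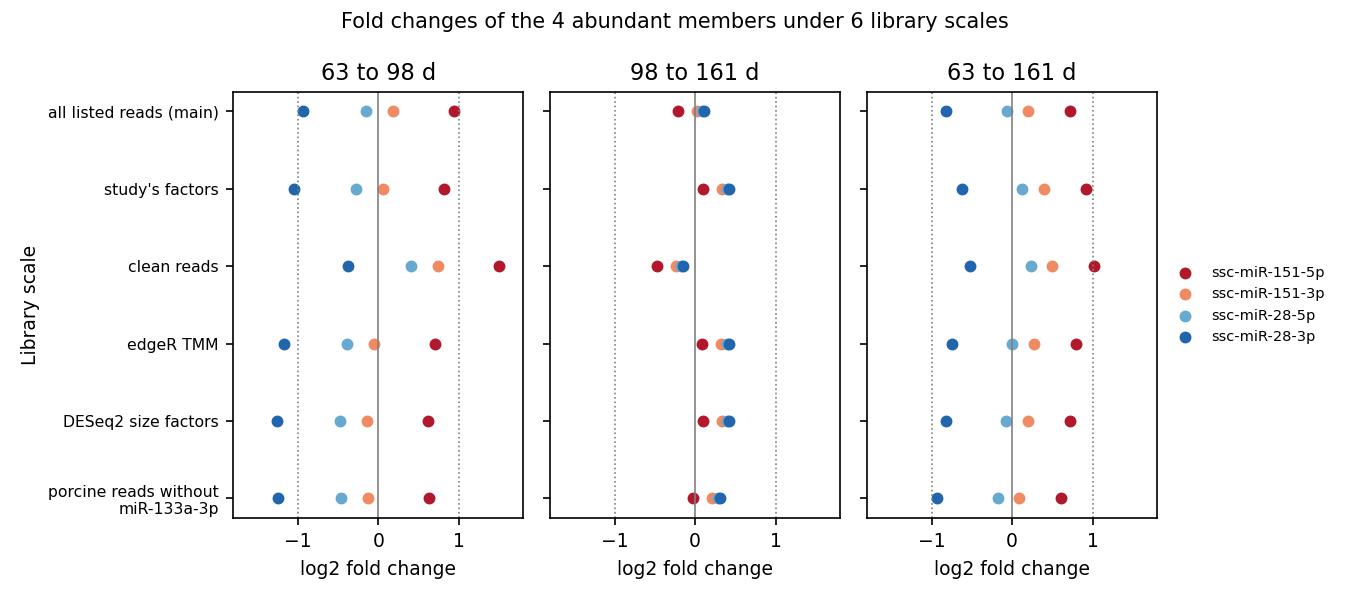
log2 fold change (later over earlier age) of the 4 abundant members under 6 library scales, with a panel for each pair of ages and dotted lines at a 2-fold change. From 63 to 98 d ssc-miR-28-3p lay below 0 and ssc-miR-151-5p above 0 under all 6 scales, whereas ssc-miR-151-3p and ssc-miR-28-5p lay on both sides of 0.

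The ratio of 2 members within a library does not depend on the scale. ssc-miR-151-5p had 2.41 reads (2.27 to 2.56) for each read of ssc-miR-28-3p at 63 d, 8.84 (8.36 to 9.36) at 98 d and 7.04 (6.65 to 7.46) at 161 d, with Clopper-Pearson intervals. The 3 intervals lay apart, and the 63 d library stood far below the other 2. For each read of ssc-miR-28-5p, ssc-miR-151-5p had 14.2 reads (12.5 to 16.2), 30.3 (27.4 to 33.6) and 24.6 (22.2 to 27.3). The ratio of the lesser arm ssc-miR-151-3p to ssc-miR-28-3p was 1.21 (1.13 to 1.29), 2.63 (2.46 to 2.80) and 2.46 (2.31 to 2.62), so that the 98 and 161 d libraries overlapped here and 63 d was again the lowest.

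The arms of each hairpin come from 1 precursor, and their ratio compares the reads of the 2 strands. Whether adapter ligation or PCR altered this ratio was not tested, so that it need not equal the ratio of the strands kept in the cell. miR-28 and miR-151 differed in the leading arm at all 3 ages. Of the miR-28 reads, the 5p arm held 14.5% (12.9 to 16.2) at 63 d, 22.6% (20.6 to 24.6) at 98 d and 22.2% (20.3 to 24.3) at 161 d, and the 3p arm led. Of the miR-151 reads, the 5p arm held 66.6% (65.3 to 67.8), 77.1% (76.4 to 77.8) and 74.1% (73.3 to 74.9), and the 5p arm led. In miR-708 the 5p arm also led, with 81.5% of 27 reads (61.9 to 93.7), 90.7% of 75 (81.7 to 96.2) and 80.5% of 41 (65.1 to 91.2). Over the 44 hairpins with both arms under porcine names and a mean of at least 10 reads for each arm, the 5p arm led at all 3 ages in 21, the 3p arm in 20, and 3 were mixed. The size of these ratios depended on which reads were counted: 5p to 3p was 1.99, 3.37 and 2.86 in miR-151 over all reads but 4.04, 6.26 and 4.81 over copies of the representative read, and in miR-28 at 63 d it was 0.170 over all reads but 0.103 without reads with errors. The leading arms stayed the same.

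**Figure D3:**
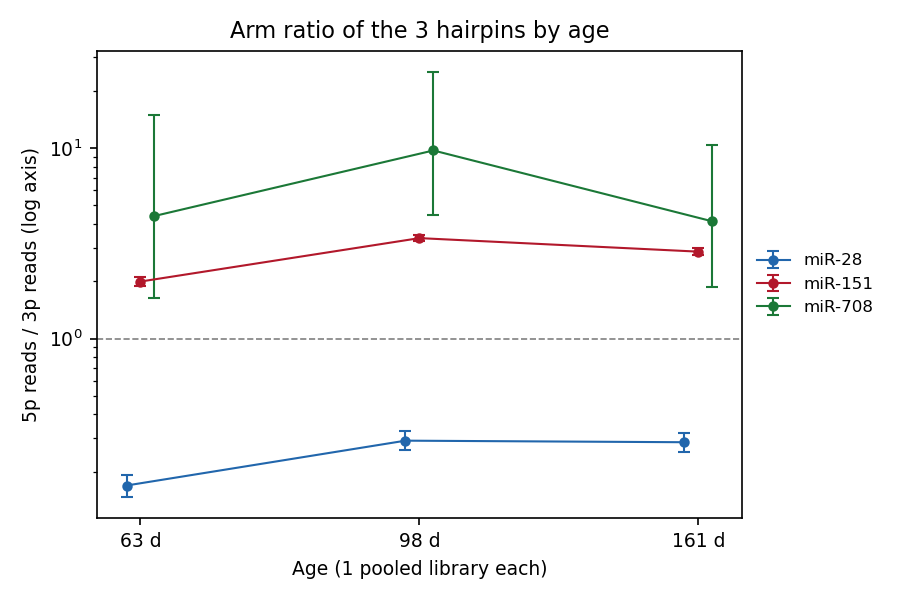
Reads of the 5p arm over reads of the 3p arm (log axis) of the miR-28, miR-151 and miR-708 hairpins at 63, 98 and 161 d, with 95% Clopper-Pearson intervals and a dashed line at equal arms. miR-28 lay below the line and miR-151 and miR-708 above it at each age, and the ratios of miR-28 and miR-151 were lowest at 63 d.

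From 63 to 98 d the ratio of 5p to 3p reads rose in both abundant hairpins and by similar factors. In miR-28 it went from 0.170 (0.148 to 0.193) to 0.291 (0.260 to 0.327), a 1.72-fold change (1.44 to 2.05, Fisher's exact test, adjusted p = 3.40e-09 over the 44 hairpins). In miR-151 it went from 1.99 (1.89 to 2.11) to 3.37 (3.24 to 3.50), a 1.69-fold change (1.58 to 1.81, Fisher's exact test, adjusted p = 5.05e-51). Both hairpins were thus called higher, where 34.1% of the 44 hairpins were called in that direction and 11.4% in the other. The median change over the 44 was 1.18-fold, with 29 hairpins higher and 15 lower, and miR-28 and miR-151 ranked 7th and 9th from the highest change. Relative to all listed reads, the arm that moved more was the 3p arm in miR-28, which fell to 0.523 of its level, and the 5p arm in miR-151, which rose 1.92-fold. This depended on the scale, since with the clean reads as the total ssc-miR-28-5p rose 1.32-fold while ssc-miR-28-3p fell to 0.770.

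From 98 to 161 d the miR-151 ratio fell to 2.86 (2.75 to 2.98), a change of 0.849 times (0.804 to 0.897, Fisher's exact test, adjusted p = 3.71e-08), where 27.3% of the hairpins were called lower. The miR-28 ratio was 0.286 (0.255 to 0.320) at 161 d, 0.981 times its value at 98 d (0.833 to 1.15), and did not pass (Fisher's exact test, adjusted p = 0.867). From 63 to 161 d the ratio rose 1.69-fold in miR-28 (1.41 to 2.01, Fisher's exact test, adjusted p = 1.91e-08, but 0.186 with the copies of the representative read) and 1.44-fold in miR-151 (1.34 to 1.54, Fisher's exact test, adjusted p = 9.19e-24), where 29.5% of the hairpins were called higher, 4.55% lower, and the median change was 1.06-fold. The representative read of ssc-miR-28-5p at 63 d was not that at 161 d, so that its copies cannot decide whether the arm ratio of miR-28 rose. In miR-708 the ratio of 5p to 3p reads was 4.40 (1.63 to 14.9), 9.71 (4.47 to 25.1) and 4.13 (1.87 to 10.3), with overlapping intervals, and its change was not tested for its few reads.

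**Figure D4:**
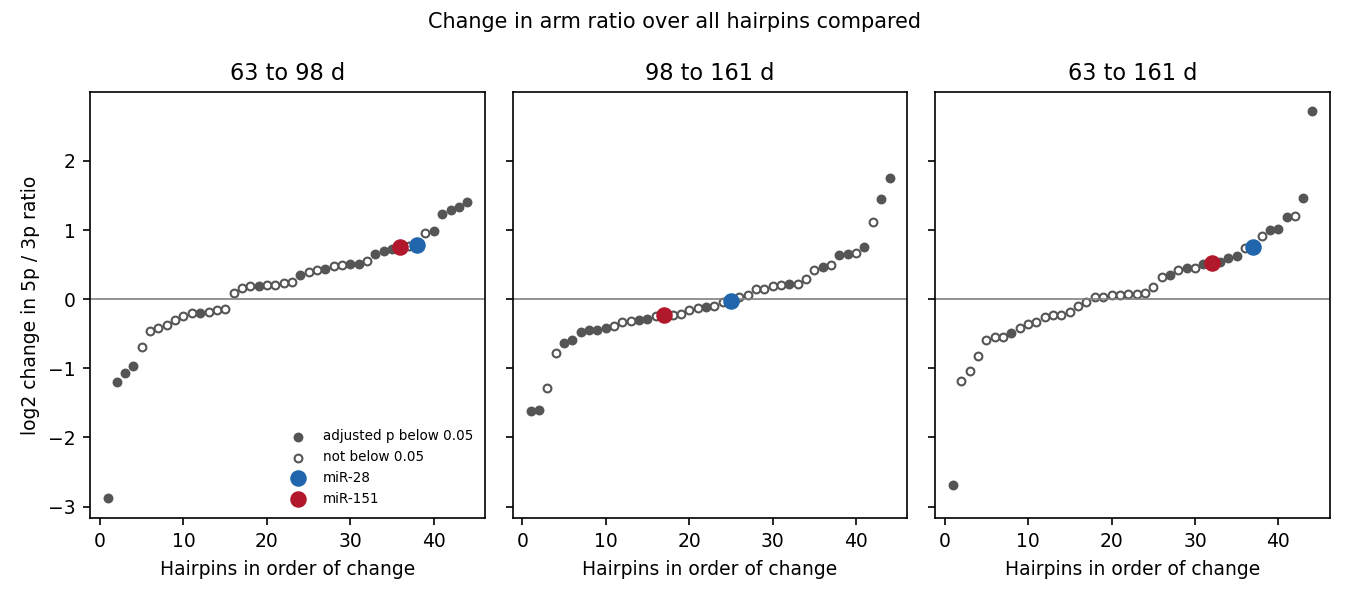
log2 change in the ratio of 5p to 3p reads of the 44 hairpins compared, in order of change, for each pair of ages, with filled grey points at an adjusted p below 0.05 (Fisher's exact test). The coloured points are filled whatever their p, and miR-28 did not pass from 98 to 161 d. Counted from the highest change, at the right, miR-28 (blue) and miR-151 (red) ranked 7th and 9th from 63 to 98 d, and 20th and 28th from 98 to 161 d.

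For scale, the 3 hairpins with the widest changes in each pair were ssc-miR-193a (0.136-fold), ssc-miR-30b (2.66-fold) and ssc-miR-30c with ssc-miR-30c-1-3p (2.53-fold) from 63 to 98 d, ssc-miR-2320 (3.39-fold), ssc-miR-140 (0.326-fold) and ssc-miR-374b (0.330-fold) from 98 to 161 d, and ssc-miR-2320 (6.57-fold), ssc-miR-193a (0.154-fold) and ssc-miR-30b (2.77-fold) from 63 to 161 d.

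The reads behind each member were next examined, since 1 arm of each abundant hairpin was listed with many more mismatches than the other. The libraries list, for each arm, the reads with at least 1 error against the reference sequence. Of the ssc-miR-28-5p reads, 43.0% (37.2 to 49.0) had an error at 63 d, 38.0% (33.4 to 43.0) at 98 d and 37.0% (32.3 to 41.9) at 161 d. Of the ssc-miR-28-3p reads, 6.40% (5.29 to 7.72), 6.07% (4.92 to 7.48) and 7.69% (6.38 to 9.23) had one. The same was seen in reverse in miR-151, where 13.9%, 13.5% and 14.5% of the 5p reads and 36.9%, 40.2% and 37.8% of the 3p reads had an error. In both hairpins it was the lesser arm that had the larger share, between 2.61 and 6.72 times that of the leading arm, and all 6 differences passed (Fisher's exact test within a library, largest adjusted p = 1.41e-40 over 6 comparisons). How often the lesser arm had the larger share in hairpins outside the family was not examined, so that this need not be particular to miR-28 and miR-151. The median share over porcine miRNAs with at least 100 reads was 16.0%, 15.5% and 16.1%, over 153, 170 and 161 miRNAs. The leading arms of miR-28 and miR-151 thus lay below the median and their lesser arms above the upper quartile of 25.4%, 27.4% and 26.9%. The scarce miR-708 went the other way. Its leading arm ssc-miR-708-5p had an error in 50%, 25% and 30.3% of 22, 68 and 33 reads. Its lesser arm had one in 0% of 5, 7 and 8 reads, too few for a comparison. Within a member, the share with an error did not pass a test between any 2 ages (Fisher's exact test, smallest adjusted p = 0.199 over 12 comparisons).

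**Figure D5:**
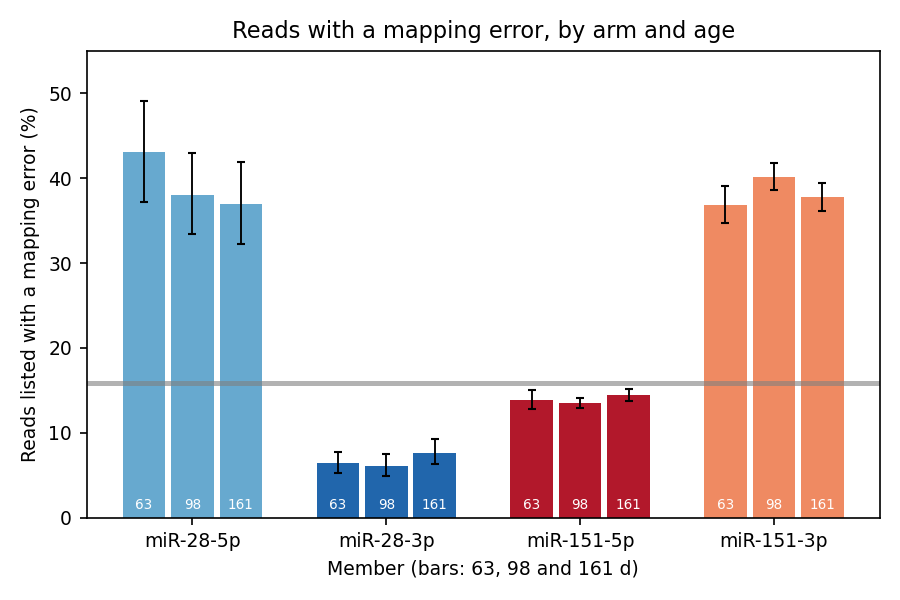
Share of reads listed with at least 1 mapping error in the 4 abundant members, with 95% Wilson intervals and bars for 63, 98 and 161 d. The grey line marks the median of porcine miRNAs with at least 100 reads (15.5% to 16.1%), and ssc-miR-28-5p and ssc-miR-151-3p, the lesser arms, lay above it at each age.

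The representative read is the read of each arm with the best mapping score. Among the members with a sequence given here, it was the known mature sequence in ssc-miR-28-3p and ssc-miR-151-5p at all 3 ages. It held 46.7%, 44.7% and 46.2% of the reads of ssc-miR-28-3p, 57.6%, 59.5% and 57.3% of ssc-miR-151-5p and 28.4%, 32.0% and 34.1% of ssc-miR-151-3p at 63, 98 and 161 d. The share rose from 63 to 98 d and from 63 to 161 d in ssc-miR-151-3p (Fisher's exact test, adjusted p = 0.0264 and 0.00032 over 12 comparisons) and fell from 98 to 161 d in ssc-miR-151-5p (adjusted p = 0.00662). The other 9 comparisons did not pass, and those of ssc-miR-28-5p with 63 d set different reads side by side, so that they do not test a change in 1 read.

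Unlike those of ssc-miR-28-3p and ssc-miR-151-5p, the representative reads of ssc-miR-28-5p differed between ages at the 3′ end. In each library only the copies of the representative read are known, so that a shift between forms was not tested. The 2 forms are shown with the base that does not match the hairpin in capitals:
ssc-miR-28-5p, 63 d: aaggagctcacagtctattgagA
ssc-miR-28-5p, 98 and 161 d: aaggagctcacagtctattga

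At 63 d the representative was thus 1 base longer than the known sequence and ended in a base that the hairpin does not have (T23A, hairpin base first, counted from the 5′ end of the read), with 89 copies. At 98 and 161 d it was 1 base shorter than the known sequence and matched the hairpin, with 121 and 102 copies. It made up 33.6%, 30.7% and 26.4% of the reads of this arm. The representative reads of miR-708-5p were the known sequence at 98 d (21 copies) and 1 base shorter at 63 and 161 d (6 and 11 copies), and those of miR-708-3p were 1 or 3 bases shorter at 2 to 4 copies. All representative reads of the 5 members with a sequence given here began at the first base of the known sequence, so that their seeds were those shown above.

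Profiles like those of the abundant members were sought among 158 of the porcine mature miRNAs outside the family with a mean of at least 100 reads, by the Euclidean distance of log2 RPM centred over the 3 libraries. With 3 libraries this is a description. Nearest to ssc-miR-28-3p was ssc-miR-423-3p (distance 0.02), with 2547, 1327 and 1466 RPM, followed by ssc-miR-1307 (0.17) and ssc-miR-1343 (0.18). Nearest to ssc-miR-151-5p was ssc-miR-9 (0.03), with 1226, 2384 and 1993 RPM, followed by ssc-miR-218b (0.04) and ssc-miR-146b (0.06), of which miR-9 and miR-218b are listed at several hairpins and were counted at 1. ssc-miR-148b-3p (0.02), ssc-miR-331-3p (0.08) and ssc-miR-27a (0.09) stood nearest to ssc-miR-151-3p. For ssc-miR-28-5p these were ssc-miR-486 (0.11), ssc-miR-7134-5p (0.13) and ssc-miR-125a (0.14).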

How the data were processed

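Small RNA of psoas major was sequenced from 1 pooled library of 6 pigs at each of 63, 98 and 161 d, and each library was assigned to its age by the age given in its labels. The authors processed the reads with ACGT101-miR 4.2, which removed adapter reads, repeats and other kinds of RNA before mapping to miRBase hairpins and the pig genome, whose build is not given in the sources used here. The deposited files hold counts, the copies of the representative read of each arm, and expected counts, the reads of all isoforms of an arm in which the authors' pipeline divided reads that map to several hairpins. Neither is normalised. The 63 d file differs in layout and has further columns, and an effect of this cannot be told apart from age.

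Expected counts were used as RPM of all listed reads, without pseudocount, with rounding to whole numbers before each test. The sequence of 1 member is not reported here. Any miRNA at several hairpins was counted at the one listed in most libraries. edgeR's quasi-likelihood test needs replicates and could not be fitted, so that an exact binomial test and Fisher's exact test were used. Both were run on simulated reads that held counting error only. Such reads cannot show how the tests behave with a spread between pigs or libraries. The members, lists and tests were chosen with earlier results of these data known. Named miRNAs are the members and same-numbered names of other species, the 3 nearest profiles, the 3 widest arm changes of each pair and the tissue check. The alternatives were other library scales (edgeR 4.0.16 TMM, DESeq2 1.42.0 size factors, the study's factors and clean reads, porcine reads without ssc-miR-133a-3p), a pseudocount of 1 RPM, other hairpin and read rules, other minimums and edgeR's exact test with an assumed coefficient of variation of 0.2. Python 3.11.15 with scipy 1.17.1 and R 4.3.3 were used.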

Additional observations from a re-analysis of the deposited data

Results flagged for a closer look

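Reads were also listed under a human name of this family, hsa-miR-151b, which lies outside the porcine names compared above. Its main sequence is that of ssc-miR-151-5p with the last base changed (T21A, porcine base first, counted from the 5′ end), shown with that base in capitals:
hsa-miR-151b: tcgaggagctcacagtctagA

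It had 7, 17 and 25 reads at 63, 98 and 161 d, which is above the 3 reads that a count of 0 allows. With its other listed forms the sums were 9, 18 and 28 reads, equal to 0.239%, 0.151% and 0.294% of the ssc-miR-151-5p reads. Adding the reads of all names listed at the miR-151 hairpin left its arm ratio within its interval. At 63 d the ratio did not change, since no such read was added there. At 161 d 2 further reads were listed as rno-mir-28-p5, a rat name. Whether these reads come from a separate locus was not tested.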

How the results depend on the processing

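No paired analysis was possible because each age had 1 library. With 1 library for an age no replicate could be left out, and at these depths neither ssc-miR-708-3p nor the arm ratio of miR-708 could be compared. The cause of the changes listed here was not tested beyond what each alternative itself alters. Over the 4 abundant members in 3 pairs, the direction and the call remained in 90 of 132 recomputed changes. In 6 more, all of ssc-miR-28-5p from 98 to 161 or 63 to 161 d, the direction turned without a call on either side. The 132 include settings that could hardly differ from the main one, so that the 90 overstate the agreement. Other hairpin rules left the members' fold changes as they were, since each member lies at 1 hairpin. The pseudocount kept the p-values of the main scale. On the log2 scale, ssc-miR-151-3p turned from higher to lower from 63 to 98 d with TMM factors (-0.055), DESeq2 size factors (-0.14) and the porcine reads without ssc-miR-133a-3p (-0.13), and no longer passed with the study's factors (0.066). ssc-miR-151-5p turned from lower to higher from 98 to 161 d with the study's factors (0.097), TMM (0.090) and size factors (0.097), and no longer passed with the porcine reads (-0.021). With clean reads, ssc-miR-28-5p from 63 to 98 d (0.40) and ssc-miR-28-3p (-0.15) and ssc-miR-151-3p (-0.24) from 98 to 161 d changed direction and passed.

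Calls were gained with the study's factors, TMM, size factors and porcine reads, in this order, for ssc-miR-28-5p from 63 to 98 d (-0.27, -0.39, -0.47 and -0.46), and from 98 to 161 d for ssc-miR-28-3p (0.43, 0.42, 0.43 and 0.31), ssc-miR-28-5p (0.40, 0.39, 0.40 and 0.28) and ssc-miR-151-3p (0.33, 0.33, 0.33 and 0.21). From 98 to 161 d the representative copies gave a call for ssc-miR-28-3p (0.19) and ssc-miR-151-3p (0.14). With edgeR's exact test no call remained: ssc-miR-28-3p (-0.93 and -0.82 from 63 to 98 and 63 to 161 d), ssc-miR-151-3p (0.18 and 0.20) and ssc-miR-151-5p (0.94, -0.22 from 98 to 161 d, and 0.72), with adjusted p between 0.163 and 0.870.

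The number of porcine miRNAs past a 2-fold change was 39, 32 and 43 from 63 to 98, 98 to 161 and 63 to 161 d. It was 65, 56 and 68 without a filter, 20, 18 and 23 with a mean of at least 100 reads, 16, 13 and 22 with edgeR's exact test, and 100 with clean reads from 63 to 98 d. The split into higher and lower was 30 and 9, 7 and 25, and 19 and 24. It was 21 and 16, 14 and 12, and 27 and 19 with the study's factors, 97 and 3, 5 and 39, and 37 and 13 with clean reads, 16 and 18 (63 to 98 d) and 14 and 12 (98 to 161 d) with TMM, 14 and 24, and 14 and 12 with size factors, and 14 and 23, 10 and 19, and 17 and 34 with porcine reads.

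At 63, 98 and 161 d the 5p to 3p ratio of miR-28 was 0.122, 0.20 and 0.163 with representative copies and 0.103, 0.192 and 0.195 without reads with errors, and that of miR-151 was 4.04, 6.26 and 4.81, and 2.72, 4.87 and 3.93. The leading arms stayed the same. Of the 18 recomputed changes in arm ratio 16 kept direction and call, and that of miR-28 from 98 to 161 d, which was not called, turned to 0.022 on the log2 scale without reads with errors. The 18 include the sum over all hairpins, which left these ratios as they were, since each member lies at 1 hairpin. With representative copies the rise of miR-28 from 63 to 161 d (0.42 on the log2 scale) did not pass (Fisher's exact test, adjusted p = 0.186). Those copies are of different ssc-miR-28-5p reads at 63 and 161 d, so that they do not test a change in 1 read. The ratio of ssc-miR-151-5p to ssc-miR-28-3p was 2.97, 11.8 and 8.73 with representative copies and 2.22, 8.14 and 6.52 without reads with errors. The family's share was 0.886%, 1.13% and 1.06% of porcine mature reads and 0.183%, 0.376% and 0.286% of clean reads, and 0.50% at 63 d and 0.635% at 161 d of reads without errors.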
